A study of Mus musculus with 24 samples.

Results

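*Hes1*, *Hes5*, *Hes6*, *Hey1*, *Hey2*, *Heyl* and *Nrarp* were followed as the Hes, Hey and Nrarp genes of the Notch pathway, chosen by name, with earlier results of these data known. They are 7 of the 51912 genes in the expression table, and all 7 were among the 16454 genes with enough signal to be tested (10 or more normalized counts in 4 or more libraries). The samples were archicortices (ARK, the medial edge of the embryonic cortex that gives rise to the hippocampus and dentate gyrus) dissected by hand from mouse embryos of mixed C57BL/6J;MF1 background and sequenced as bulk RNA. There were 6 groups of 4 libraries, called A1 to A24 after the numbers in their labels. *Sox9*, which encodes a transcription factor of neural progenitors, was deleted from a floxed allele with either Sox1Cre or NestinCre. Sox1Cre acts from the neural plate onwards and covers the whole archicortex. NestinCre, a transgene, starts later. At E13.5 its activity includes the dentate neuroepithelium but little of the cortical hem. The Sox9fl/fl;Sox1Cre mutants (A1 to A4 at E13.5, A9 to A12 at E12.5) were compared with Sox9+/+;Sox1Cre controls (A5 to A8 at E13.5, A13 to A16 at E12.5), and the E13.5 Sox9fl/fl;NestinCre mutants (A17 to A20) with E13.5 Sox9+/+;NestinCre controls (A21 to A24). Every control therefore carried the same Cre as its mutants. Between 16163560 and 49445219 reads fell on genes per library, with a median of 23016925. The labels do not say whether the 4 libraries of a group came from separate embryos or litters, so that p-values measure the spread between these libraries only.

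In Notch signalling a Delta-like or Jagged ligand on the surface of a cell activates a Notch receptor on its neighbour, whose intracellular domain is cut free and joins RBPJ and a Mastermind-like coactivator on target genes. In the embryonic cortex *Hes1*, *Hes5*, *Hey1* and *Hey2* encode basic helix-loop-helix repressors that hold back proneural genes and keep radial glia dividing, *Heyl* encodes a related repressor best known from vessel walls, and *Hes6* encodes a family member that favours neuronal differentiation. *Nrarp* is a direct Notch target whose ankyrin-repeat product dampens the signal, so that it serves as a feedback inhibitor and as a readout of the pathway.

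On GRCm38 the genes lie on 6 chromosomes. *Nrarp* is at chr2:25180758-25183339 on the plus strand and has a single exon. *Hes1* is at chr16:30064384-30067796 (plus), *Hes5* at chr4:154960923-154962371 (plus), *Hes6* at chr1:91411483-91414038 (minus), *Hey1* at chr3:8663359-8667256 (minus), *Hey2* at chr10:30832359-30842801 (minus) and *Heyl* at chr4:123233556-123249875 (plus). Reads were counted over exons. The exons of *Hes5* and *Nrarp* overlap those of an antisense transcript each, *Gm20421* and *Gm38287*, whose mean values were 4.08 and 6.44 normalized counts over the 24 libraries, against 1024 for *Hes5* and 2953 for *Nrarp*. The other 5 share no exon bases with another gene.

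Promoter windows are shown for *Nrarp* and *Hey2*, the members with the lowest p-values in the Sox1Cre mutants, and for *Hes5*, a classical Notch target, for comparison. Each is the 250 bases before the RefSeq start on GRCm38.p6, read 5′ to 3′ on the gene's strand, at chr2:25180508-25180757 (plus), chr10:30842784-30843033 (minus) and chr4:154960673-154960922 (plus). Capitals mark TGGGAA, the core bound by RBPJ, and CACNAG, the N-box bound by Hes-type repressors, on either strand.
Nrarp: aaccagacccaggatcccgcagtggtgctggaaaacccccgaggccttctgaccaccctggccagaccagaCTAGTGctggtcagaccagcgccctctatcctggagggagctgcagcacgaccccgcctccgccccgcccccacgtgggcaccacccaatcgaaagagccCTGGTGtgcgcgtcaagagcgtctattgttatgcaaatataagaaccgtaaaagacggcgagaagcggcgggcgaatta
Hey2: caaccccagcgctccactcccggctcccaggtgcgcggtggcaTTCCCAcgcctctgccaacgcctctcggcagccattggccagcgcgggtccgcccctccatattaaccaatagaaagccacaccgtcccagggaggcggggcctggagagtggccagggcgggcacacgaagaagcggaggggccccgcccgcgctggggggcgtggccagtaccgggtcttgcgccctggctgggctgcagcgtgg
Hes5: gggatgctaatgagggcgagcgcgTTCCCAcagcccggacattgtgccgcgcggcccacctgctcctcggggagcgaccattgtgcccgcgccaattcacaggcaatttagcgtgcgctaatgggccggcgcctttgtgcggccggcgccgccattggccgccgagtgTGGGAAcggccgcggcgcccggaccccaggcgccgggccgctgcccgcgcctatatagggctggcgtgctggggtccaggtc
The *Hes5* window held TGGGAA at 2 places, starting 226 and 82 bases before the start, and the *Hey2* window at 1 place, 207 bases before it. The *Nrarp* window held CACNAG at 2 places, 179 and 79 bases before the start. TGGGAA was found in 21.6% and CACNAG in 36.7% of the 32851 promoter windows of the same length in that table. SOX-type letters, ACAATG and ACAAAG, were in 10.7% and 16.5% of all windows. The *Hes5* window held ACAATG at 2 places and ACAAAG at 1, while neither was in the windows of *Nrarp* or *Hey2*. Other SOX-type letters were not searched for, so their absence from these windows is not shown. The 2 windows of *Hes6* held ACAAAG at 3 places and CACNAG at 1. A match describes these letters only, and binding was not measured. Windows were found in the table for 4 of the 7 genes.

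Levels of different genes were compared as RPKM, reads per kb of merged exon scaled to the total of reads on genes in the library. On this scale *Nrarp* had the highest level over the 24 libraries (49.1 ± 5.87, SD), followed by *Hes6* (40.6 ± 3.52), *Hes1* (33.1 ± 3.62), *Hes5* (32.3 ± 6.96), *Hey1* (29.6 ± 4.75), *Hey2* (9.42 ± 1.56) and *Heyl* (4.14 ± 0.758). *Nrarp* was above *Hes6* in 20 of 24 libraries, and *Hes6* above *Hes1* in all 24. *Hes1* was above *Hes5* in 14 libraries and *Hes5* above *Hey1* in 15. The order of these 5 genes depended on the length used: with the longest transcript in place of the merged exons *Nrarp* (49.1), *Hes6* (46.7) and *Hes1* (46.0) lay close together, with *Nrarp* above *Hes6* in 13 libraries and *Hes6* above *Hes1* in 12, and *Hey1* moved above *Hes5*. *Hey2* was at 16.97 with that length. *Hey1* was above *Hey2*, and *Hey2* above *Heyl*, in every library with either length. All further values are normalized counts, which are compared between libraries and not between genes.

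The spread between libraries also differed between members. The highest library exceeded the lowest 1.37-fold for *Hes6*, 1.69-fold for *Hes1*, 1.76-fold for *Hey1*, 2.01-fold for *Hes5*, 2.39-fold for *Hey2* and 2.81-fold for *Heyl*. *Hes6* was thus the steadiest of the 6 Hes and Hey genes. The wide range of *Heyl* rested on library A1, without which it was 1.82-fold, and by SD over mean *Hes5* (21.1%) was above *Heyl* (18.3%).

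**Figure D1:**
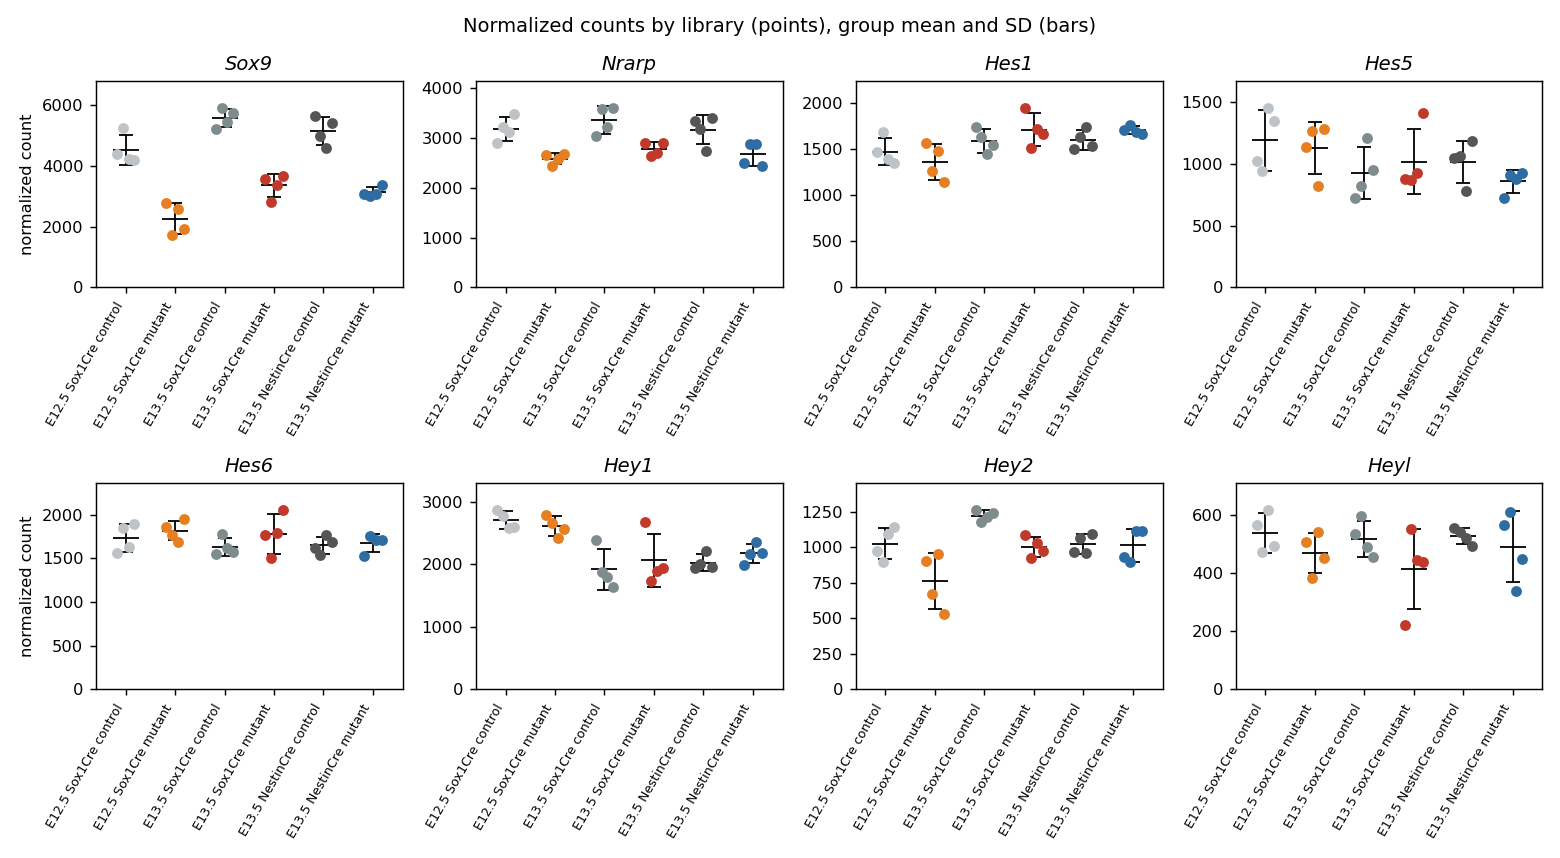
Normalized counts (linear vertical axes from 0) of *Sox9* and the 7 Notch genes in each of the 24 libraries, in 6 groups of 4, with group means and SD as bars. *Nrarp* sits lower in the mutants of each pair, *Hey1* is higher at E12.5 than in every E13.5 library but A1, and 1 E13.5 Sox1Cre mutant library has a *Heyl* value of 220.

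*Sox9* itself was read first as a check of the labels. Its normalized counts were 3563, 2828, 3384 and 3677 in the E13.5 Sox1Cre mutants against 5218, 5911, 5450 and 5731 in their controls. At E12.5 they were 2785, 1733, 2593 and 1928 in the mutants against 4391, 5265, 4237 and 4194, and with NestinCre 3089, 2997, 3083 and 3369 against 5636, 4979, 4586 and 5406. No mutant library reached the lowest control of its pair. Under limma, adjusted over all genes, the log2 fold changes were -0.74 (SE 0.118, adjusted p = 0.0021), -1.02 (adjusted p = 6.28e-05) and -0.71 (adjusted p = 0.0297). The last call was lost without any of 7 of the 8 libraries (log2 difference -0.77 to -0.67 and adjusted p up to 0.11 over the 8) and with *Xist* as a covariate (adjusted p = 0.0617). *Sox9* reads thus remained in every mutant library. Recombination of the floxed allele leaves the first exon in place, so that counts over the whole gene cannot tell intact from truncated transcript. The assay cannot tell fewer cells of a type from less RNA per cell, here or for any gene named further on.

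Several libraries stood apart in tissue content or sex. A1 had the lowest summed signal of endothelial markers (5306 against 10321 to 13323 in the other 3 libraries of its group), of 8 pericyte and smooth muscle markers (2660 against 4653 to 5988), of 8 meninges markers (18540 against 29575 to 43894) and of 6 choroid plexus markers (7484 against 63355 to 85602). It also had the lowest sum of 9 cortical hem markers of all 24 libraries (13729) and the highest of 7 archicortex and dorsal telencephalon markers (41347). A12 stood at the opposite end, with the lowest sum of the archicortex markers (19087, followed by A10 at 25680, against 28733 to 35785 in the E12.5 controls) and the highest of the hem markers (53365, against 28351 to 44509). A10 and A19 were the next lowest in the 10 endothelial markers, at 6226 and 7429. A4 had the highest sums of neuron markers (50660) and Cajal-Retzius cell markers (17512) of all 24 libraries. A18 had the highest sum of 7 ventral telencephalon markers, 657.9, against 15.4 to 99.5 in the other 23 libraries. *Gsx2* and *Nkx2-1* of this list had a median of 0 over the 24 libraries. *Xist*, which marks female embryos, was at 6.41 or lower in 13 libraries and at 3526 or higher in 11. All 4 E13.5 Sox1Cre controls were low and all 4 E12.5 Sox1Cre controls high, whereas the mutant groups of this line held both (high in A2, A3, A10 and A11), as did the NestinCre groups (high in A18, A20 and A23). None of the 7 archicortex markers had a median of 0 over the 24 libraries. *Lhx2*, a selector gene of the cortex, was the most abundant of them with a mean of 15922.

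The first question was whether loss of *Sox9* changes the Notch targets. None of the 7 passed an adjusted p of 0.05 in the E13.5 Sox1Cre mutants, where 0.924% of all genes tested did, in the E12.5 Sox1Cre mutants (0.723% of all genes) or in the E13.5 NestinCre mutants (0.0669%). These shares are those of limma. On the reads recovered from the normalized counts, edgeR called 0 of the 7 in each comparison, and DESeq2 called *Nrarp* in both Sox1Cre comparisons and none with NestinCre. Over 11 alternatives, edgeR and DESeq2 among them, 44 to 962 of all genes passed at E13.5 and 76 to 577 at E12.5 with Sox1Cre. With NestinCre 2 to 37 passed, the highest number with DESeq2. At an unadjusted limma p under 0.05 there were 2 of 7, *Nrarp* and *Hey2*, in each Sox1Cre comparison, and 1 of 7, *Nrarp*, with NestinCre. Among all 16454 genes tested 1932 had such a p at E13.5 with Sox1Cre, 2217 at E12.5 and 1064 with NestinCre. The median log2 fold change of the 7 was 0.10 at E13.5 and -0.11 at E12.5 with Sox1Cre and -0.02 with NestinCre, against medians over all genes tested of -0.0046, 0.0020 and -0.0021. The log2 fold change was positive for 4 members and negative for 3 in the E13.5 Sox1Cre mutants, positive for 1 and negative for 6 at E12.5, and positive for 3 and negative for 4 with NestinCre.

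*Nrarp* was the member with the lowest p-value in all 3 comparisons, and lower in the mutants in each. At E13.5 its normalized counts were 2902, 2634, 2686 and 2895 in the Sox1Cre mutants and 3028, 3580, 3214 and 3597 in the controls. All 4 mutants lay below all 4 controls, as happened with 5.06% of all genes tested in either direction. The mean was 3355 ± 280.4 in the controls and 2779 ± 139.6 in the mutants (SD, n = 4), a log2 difference of -0.27 (SE 0.0753, 95% interval -0.43 to -0.11), which missed the threshold under limma (unadjusted p = 0.0018, adjusted p = 0.0994) and gave p = 0.0286 in a two-sided exact permutation test, the smallest that 4 against 4 can give.

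At E12.5 the counts of *Nrarp* were 2662, 2432, 2574 and 2668 in the Sox1Cre mutants and 2888, 3215, 3124 and 3478 in the controls. The groups again did not overlap, as with 10.3% of all genes at this age. The log2 difference was -0.30 (SE 0.0753, 95% interval -0.45 to -0.14, limma adjusted p = 0.0725). With NestinCre the counts were 2493, 2867, 2877 and 2432 in the mutants and 3328, 3180, 2738 and 3392 in the controls. Here control A23 lay within the mutant range, so the groups overlapped, and the log2 difference was -0.24 (95% interval -0.40 to -0.09, limma adjusted p = 0.45, exact permutation p = 0.0857). None of the 7 genes had groups free of overlap in the NestinCre comparison, where 4.98% of all genes did.

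The mutant values of *Nrarp* were lower by a similar share in all 3 comparisons, 17% at E13.5 and 18.5% at E12.5 with Sox1Cre and 15.5% with NestinCre. The difference between the Cre lines at E13.5 was -0.03 on the log2 scale (95% interval -0.25 to 0.20, limma adjusted p = 0.99), and that between ages 0.03 (95% interval -0.19 to 0.25, adjusted p = 0.972). Both intervals still allow differences close to the size of the change itself. The E13.5 and E12.5 comparisons share no library, and neither shares one with the NestinCre comparison. All 3 were normalized together and fitted with a shared estimate of the spread, so their p-values and intervals are not independent. The call depended on the test used: at E13.5 *Nrarp* passed with library weights (adjusted p = 0.0179) and with DESeq2 (adjusted p = 0.0326), in a range up to 0.309 over 11 alternatives, and at E12.5 in 3 of 11 alternatives (adjusted p 0.0178 to 0.124). With *Xist* as a covariate the log2 difference was -0.21 at E13.5 and -0.35 at E12.5. The sum of 10 radial glia markers, *Sox9* among them and *Vim* the most abundant, was lower in every mutant library at E13.5, with 66159 to 73928 in the Sox1Cre mutants and 74663 to 81477 in the controls. The sums overlapped at E12.5 (67982 to 82907 in mutants, 75228 to 82484 in controls) and with NestinCre (68265 to 78307 and 72426 to 78904). *Sox9*, *Vim* and *Hopx* were the 3 of the 10 that passed at E13.5 with Sox1Cre, and the call was lost without any of 4 of the 8 libraries for *Vim* and of 6 for *Hopx*, and in 3 and 4 of 11 other alternatives (adjusted p up to 0.482 and 0.239). The lower sum at E13.5 was carried by *Vim* and the deleted gene *Sox9*: the other 8 markers summed to 35726 to 40844 in the mutants and 35402 to 41458 in the controls. Of the 10 endothelial markers all had a negative log2 difference in both E13.5 comparisons (median -0.27 with Sox1Cre and -0.14 with NestinCre) and 8 at E12.5 (median -0.08), and of the 8 meninges markers 7, 6 and 6 had one (medians -0.24, -0.14 and -0.05), with none passing. Without A1, the library with the lowest sums of both lists, *Nrarp* was at -0.29 at E13.5 with Sox1Cre. Pericyte and smooth muscle markers went the other way at E12.5, with a positive log2 difference for 6 of 8 (median 0.25). At E13.5, 2 of the 8 were positive with Sox1Cre and 1 with NestinCre (medians -0.19 and -0.18). At E12.5 all 7 archicortex markers were negative (median -0.24). All 9 hem markers (median 0.19) and 5 of 6 choroid plexus markers (median 0.46) were positive there. The part of vessel, meninges and other tissue content in the *Nrarp* values was not tested.

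*Hey2*, a repressor that maintains neural progenitors, was the other member with low p-values in the Sox1Cre mutants. At E13.5 its counts were 1086, 923.4, 1028 and 973.0 in the Sox1Cre mutants and 1266, 1182, 1211 and 1240 in the controls. The groups were apart, and the controls lay close together (SD 36.2 around 1225). The log2 difference of -0.29 (SE 0.131, 95% interval -0.56 to -0.02) did not pass (limma adjusted p = 0.39, exact permutation p = 0.0286). *Nrarp* and *Hey2* were the 2 members of 7 with groups free of overlap in this comparison, beside 5.06% of all genes tested.

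At E12.5 *Hey2* was at 901.4, 672.8, 952.4 and 530.2 in the mutants and at 976.2, 895.4, 1094 and 1141 in the controls. Libraries A10 and A12 were far below every control, while A9 and A11 were above the lowest control. A12 and A10 were also the lowest of all 24 libraries in the sum of archicortex markers. At E12.5 all 7 of these markers had a negative log2 difference in the mutants (median -0.24) and all 9 hem markers a positive one (median 0.19), with none passing. The part of this tissue content in the *Hey2* values was not tested. The log2 difference was -0.46 (SE 0.131, 95% interval -0.73 to -0.19, limma adjusted p = 0.113). Without A11 it was -0.58 and passed (adjusted p = 0.0308), and without A12 it was -0.29 (adjusted p = 0.338). In the NestinCre mutants *Hey2* was at 932.2, 894.6, 1119 and 1113 against 968.1, 1068, 957.6 and 1097. These groups overlapped, with a log2 difference of -0.02 (95% interval -0.29 to 0.26). The change in the Sox1Cre line at E13.5 was more negative than that with NestinCre by 0.27 on the log2 scale, but the interval of this difference, -0.66 to 0.11, included 0 (limma unadjusted p = 0.152, adjusted p = 0.784), so that a difference between the Cre lines was not shown. Between the ages the difference was 0.17 (95% interval -0.22 to 0.55).

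*Heyl* had the most negative point estimate of the 7 members at E13.5 with Sox1Cre, and it rested on A1. The mutants were at 220.0, 550.4, 443.4 and 438.5 and the controls at 533.4, 596.4, 488.9 and 453.5. A2 was above 3 of the 4 controls, and A1 was less than the lowest value of any other library (338.9, in A19). The log2 difference was -0.39 (SE 0.207, 95% interval -0.83 to 0.04, limma adjusted p = 0.483), and without A1 it was -0.12. At E12.5 it was -0.20 and with NestinCre -0.14, both with intervals that included 0. The lowest 3 libraries for *Heyl* were A1, A19 and A10 (382.2), the same 3 that were lowest in the sum of endothelial markers. The part of vessel content in these values was not tested.

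The 4 remaining members gave no difference larger than the spread between libraries. *Hes1*, the central Notch effector of cortical progenitors, was at 1712 ± 179 (SD, n = 4) in the E13.5 Sox1Cre mutants and 1589 ± 126 in the controls, with a log2 difference of 0.11 (95% interval -0.09 to 0.30). It was -0.11 at E12.5 and 0.09 with NestinCre (95% interval -0.10 to 0.285). *Hes5* had the widest intervals of these 4, with log2 differences of 0.13 (95% interval -0.26 to 0.52), -0.08 and -0.23 in the same order, and the sign of the first turned without library A4. The difference between the Cre lines for *Hes5* was 0.365 (95% interval -0.19 to 0.92, limma adjusted p = 0.809). *Hes6* was at 0.12 (95% interval -0.05 to 0.29), 0.07 and 0.02, and *Hey1* at 0.10 (95% interval -0.13 to 0.33), -0.05 and 0.10. Adjusted p-values of these 4 genes lay between 0.615 and 1 over the 3 comparisons.

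**Figure D2:**
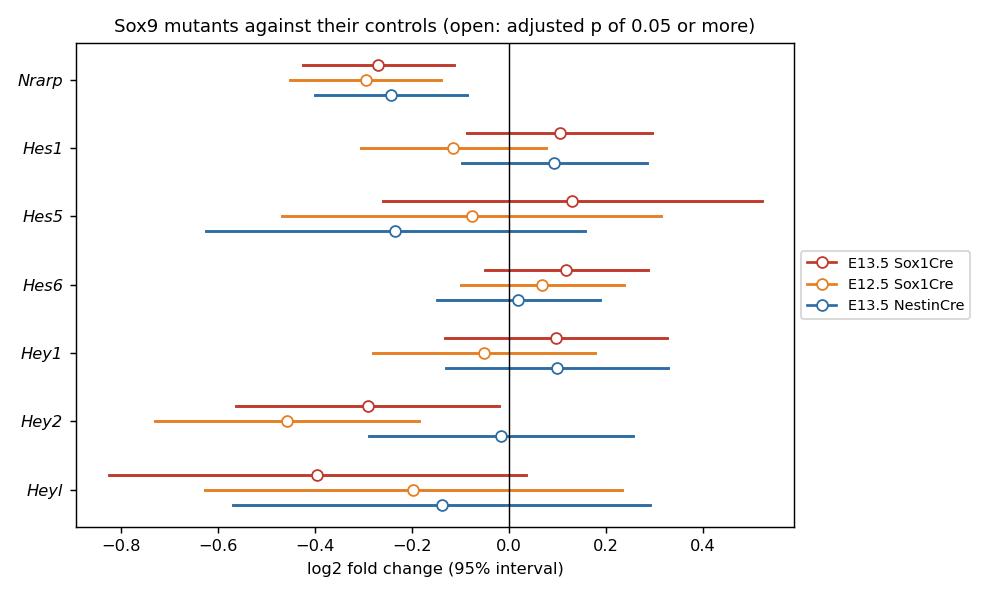
Log2 fold change (horizontal axis, mutants over controls) of the 7 Notch genes with 95% intervals from limma, in 3 comparisons of *Sox9* mutants with controls (colours). All points are open because none passed an adjusted p of 0.05. The intervals of *Nrarp* lie below 0 in all 3 comparisons, and those of *Hey2* in both Sox1Cre comparisons.

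The difference between Cre lines was called for 0 of the 7 members (0.0425% of all genes, 7 in number). None of the members reached an unadjusted limma p of 0.05, where 1360 of 16454 genes tested did. The difference between ages was called for none of the 7 and, under limma, for 0% of all genes, with 1217 of 16454 at an unadjusted p under 0.05. On recovered reads edgeR called 0 and DESeq2 20 genes there.

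Upstream of these targets, the change that passed was in a receptor. Of the 4 Notch receptors 1, *Notch1*, passed as lower in the E13.5 Sox1Cre mutants, and it also passed at E12.5. Its counts at E13.5 were 4625, 4013, 4115 and 4690 in the mutants against 6428, 9012, 7304 and 8267 in the controls. The mutants were all below the controls, and groups were free of overlap for 5.06% of all genes tested, in either direction. The log2 difference was -0.82 (limma adjusted p = 0.0002). At E12.5 the mutants were at 4955, 4531, 4979 and 4693 and the controls at 6543, 6638, 6439 and 6584. The log2 difference was -0.45 (limma adjusted p = 0.0417), a call lost when any of the 8 libraries was left out (adjusted p 0.0579 to 0.114) and in 2 of 11 other alternatives (adjusted p up to 0.0876). With NestinCre *Notch1* was at 4683, 5879, 5163 and 4783 against 7803, 6532, 5570 and 8009, a log2 difference of -0.44 (limma adjusted p = 0.252). *Notch2*, *Notch3* and *Notch4* had log2 differences of -0.23, -0.15 and -0.18 at E13.5 with Sox1Cre, and none passed there, at E12.5 or with NestinCre. The median of the 4 receptors was -0.20 at E13.5.

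None of the 5 ligands (*Dll1*, *Dll3*, *Dll4*, *Jag1*, *Jag2*), the 3 Fringe enzymes that glycosylate the receptors, the 12 genes of ligand and receptor processing, the 7 regulators in the receiving cell or the 11 genes of the transcription complex and its corepressors passed in any of the 3 mutant comparisons. *Dll1*, *Mfng*, *Mib1* and *Dtx4*, the most abundant ligand, Fringe enzyme, processing gene and regulator, had log2 differences of -0.08, -0.20, -0.14 and 0.26 in the E13.5 Sox1Cre mutants. *Rbpj*, the DNA-binding partner of all 4 receptors, was at -0.10. Of 6 other Hes and Hey relatives and Bhlhe repressors 3 had enough signal, and *Bhlhe40*, a repressor with the same Orange domain, was lower in the E12.5 Sox1Cre mutants (log2 difference -0.65, limma adjusted p = 0.0273; counts 550.6, 398.4, 569.2 and 283.0 against 725.2, 634.7, 677.9 and 696.3), with the 4 mutants below the controls. Groups were free of overlap for 10.3% of all genes tested in this comparison. The lowest values of *Bhlhe40* were in A12 and A10, the libraries with the lowest sums of archicortex markers, whose part in the result was not tested. That call was lost without any of 5 of the 8 libraries (adjusted p up to 0.0999) and in 2 of 11 other alternatives (adjusted p up to 0.163).

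Downstream, Hes and Hey repressors hold back the proneural factors, of which 6 of 7 had enough signal. At E12.5 *Neurod4*, a factor of differentiating neuronal precursors, was higher in the Sox1Cre mutants (log2 difference 1.71, limma adjusted p = 0.0417), the 1 of 6 that passed, and the call was lost without any of 6 of the 8 libraries (adjusted p up to 0.184) and in 5 of 11 other alternatives (adjusted p up to 0.103, with *Xist* as a covariate). None passed in the other 2 mutant comparisons. *Neurog2*, the most abundant of the list, had log2 differences of -0.28, -0.31 and -0.18, in the order E13.5 Sox1Cre, E12.5 Sox1Cre and NestinCre.

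The second question was how the genes change with age, from E12.5 to E13.5. In the Sox1Cre controls 1 of 7 members passed, *Hey1*, where 11.5% of all genes did. In the Sox1Cre mutants 3 of 7 passed, *Hey1*, *Hey2* and *Hes1*, where 25.9% did. These counts stood beside a background in which a large part of the transcriptome changed with age.

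*Hey1* fell with age in both genotypes. Its counts in the controls were 2878, 2772, 2584 and 2602 at E12.5 and 2391, 1874, 1791 and 1633 at E13.5. The ages did not overlap, as with 18% of all genes in the controls, and the log2 difference was -0.51 (SE 0.11, 95% interval -0.74 to -0.28, limma adjusted p = 0.00671). In the mutants the counts were 2800, 2668, 2425 and 2572 at E12.5 and 2687, 1736, 1888 and 1950 at E13.5. Library A1 kept a level like that at E12.5, and the log2 difference was -0.36 (95% interval -0.59 to -0.13, adjusted p = 0.02), a call lost without any of 4 of the 8 libraries (adjusted p up to 0.0657). Without A1 it was -0.49. The 8 NestinCre libraries, all of E13.5, were at 1941 to 2363, below every E12.5 library.

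In the controls age and *Xist* cannot be told apart, since all 4 E12.5 libraries were *Xist*-high and all 4 at E13.5 *Xist*-low. With *Xist* as a covariate *Hey1* was at -0.57 with an adjusted p of 0.0922 by limma, and 0 of 16454 genes passed. In the mutants, where both ages held 2 *Xist*-high and 2 *Xist*-low libraries, the covariate left *Hey1* past the threshold.

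*Hey2* moved the other way. In the mutants it was at 901.4, 672.8, 952.4 and 530.2 at E12.5 and at 1086, 923.4, 1028 and 973.0 at E13.5. Only A2 lay within the E12.5 range, and the log2 difference was 0.43 (SE 0.131, 95% interval 0.16 to 0.70, limma adjusted p = 0.02). It did not pass without any one of A1, A10 and A12, and without A12 it was 0.26 (adjusted p = 0.0946). In the controls the E12.5 values of 976.2, 895.4, 1094 and 1141 were all below the E13.5 values of 1266, 1182, 1211 and 1240. The ages were free of overlap for 18% of all genes in the controls. The log2 difference of 0.26 did not pass (limma adjusted p = 0.207). No member had ages free of overlap in the mutants, where 23.1% of all genes did.

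*Hes1* rose with age in the mutants, from 1569, 1260, 1484 and 1148 to 1946, 1513, 1721 and 1669. A2 alone lay within the E12.5 range, and the log2 difference was 0.33 (SE 0.0916, 95% interval 0.14 to 0.52, limma adjusted p = 0.0113). Without A12, the lowest library, it was 0.25 and did not pass (adjusted p = 0.0571). In the controls it was 0.11 (95% interval -0.08 to 0.30), and the difference between the genotypes was 0.22 (95% interval -0.05 to 0.49, adjusted p = 0.739). When each age comparison was fitted with its own 8 libraries, none of the 3 members passed in the mutants. *Nrarp* differed by 0.08 (95% interval -0.08 to 0.23) and 0.10 between ages in controls and mutants, *Hes5* by -0.36 and -0.16, *Hes6* by -0.09 and -0.04 and *Heyl* by -0.05 and -0.25, and none of these passed.

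**Figure D3:**
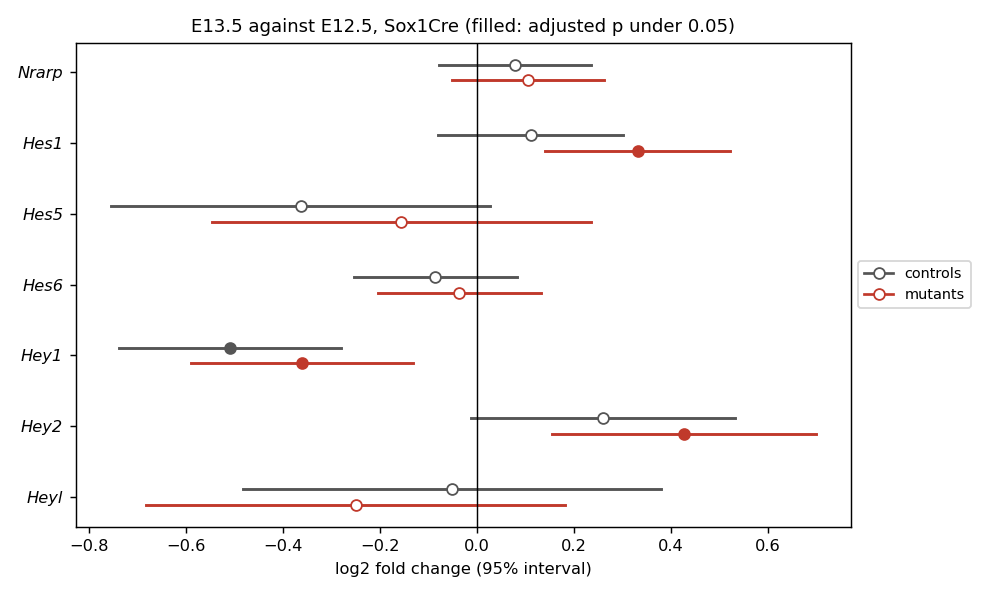
Log2 fold change from E12.5 to E13.5 (horizontal axis) of the 7 Notch genes with 95% intervals from limma, in Sox1Cre controls and mutants. Filled points passed an adjusted p of 0.05: *Hey1* below 0 in both, *Hey2* and *Hes1* above 0 in the mutants.

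The ligands and receptors that passed with age were all lower at E13.5. In the mutants 2 of 5 ligands passed as lower at E13.5 (*Dll1* by a log2 difference of -0.54 and *Jag1* of -0.47), and 2 of 4 receptors (*Notch3* of -0.63 and *Notch2* of -0.39). A negative log2 difference was seen there for 4 of 5 ligands and all 4 receptors. In the controls *Dll1* (-0.29) and *Notch3* (-0.43) passed, both lower. Of the 6 proneural factors tested 3 passed as higher at E13.5 in the controls and 2 in the mutants, and 5 had a positive log2 difference in each. *Neurod2*, a gene of young neurons, was at 1.27 and 1.56. The sum of 8 neuron markers was 28244 to 29733 in the E12.5 controls and 32483 to 48994 at E13.5, and that of 9 cortical hem markers 28351 to 44509 and 16222 to 24501. In the mutants the neuron sum was 26097 to 29179 and 31792 to 50660, the hem sum 36944 to 53365 and 13729 to 29336, and the archicortex sum 19087 to 28803 and 29408 to 41347. Of the archicortex markers 6 of 7 passed as higher at E13.5 in the mutants and 1 as lower (median log2 difference 0.48), and 7 of 9 hem markers passed as lower (median -1.09). A12, without which neither *Hey2* nor *Hes1* passed in the mutants, was the extreme library in both sums. Of 9 erythroid (blood) markers 6 passed as lower at E13.5 in the controls (median -0.97). In the mutants 5 passed as lower and 1 as higher (median -1.04). Of the 8 meninges markers 4 passed as lower and 1 as higher in the mutants (median -0.56). In the controls 1 passed each way (median -0.36). Pericyte and smooth muscle markers passed as higher for 3 of 8 in the controls and 1 in the mutants. The part of tissue composition in the age differences was not tested.

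The third question was whether the members vary together between libraries of the same group. Over the 24 libraries, after each group's mean was removed, 21 pairs were compared, and 9 had a positive r. *Hes1* and *Hes5*, both classical Notch effectors, varied in opposite directions (Pearson r = -0.60, permutation p = 0.00214, adjusted p = 0.0319; Spearman rho = -0.64, adjusted p = 0.0221). The relation remained without the 2 libraries farthest from the median of *Hes1*, A9 and A12 (r = -0.66). *Hes1* and *Hey1* varied together (r = 0.57, permutation p = 0.00304, adjusted p = 0.0319), and r was 0.62 without the same 2 libraries, but rho did not pass (rho = 0.53, adjusted p = 0.0949). *Hey1* and *Heyl* ran in opposite directions (r = -0.58, permutation p = 0.00484, adjusted p = 0.0339), a relation that fell to -0.43 without A1 and A5 and whose rho of -0.44 did not pass (adjusted p = 0.173). No other pair passed, and *Nrarp* had its highest r with *Hes6* (0.41, adjusted p = 0.196). Removing 6 group means leaves 18 degrees of freedom in 24 points, which these permutations do not take into account. The permutation and adjusted p-values of these pairs are therefore too small. Whether any pair would pass with this taken into account was not tested.

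**Figure D4:**
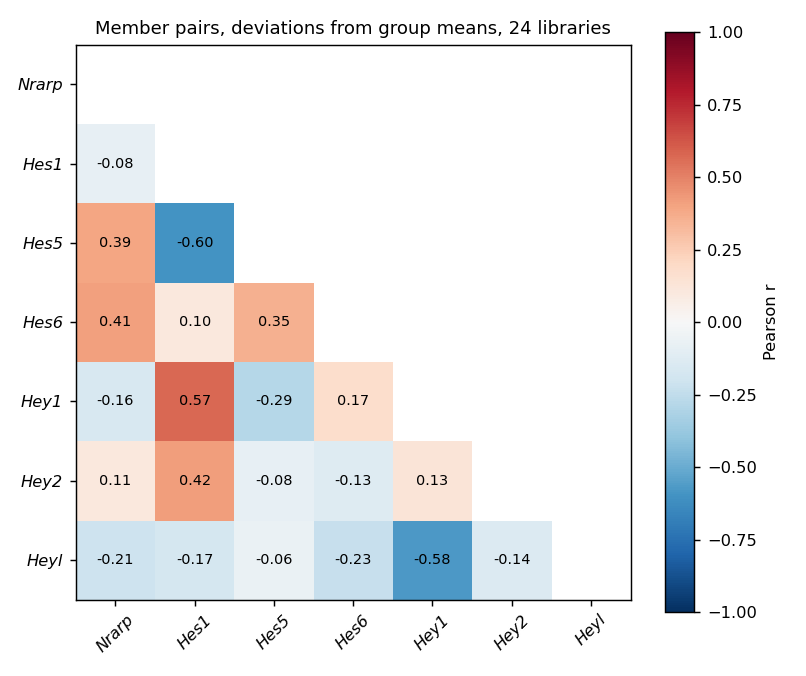
Pearson r between pairs of the 7 Notch genes (rows and columns) over 24 libraries, on log2 values with group means removed, as numbers on a scale from -1 (blue) to 1 (red). *Hes1* is at -0.60 with *Hes5* and at 0.57 with *Hey1*.

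As a description, the genes with the most similar pattern over all 24 libraries were sought for each member among 11823 other genes with a mean of at least 100 normalized counts, the 7 members themselves set aside. These correlations share libraries and groups and are given without a test. *Nrarp* was most like *Notch1* (r = 0.88), and r was still 0.83 with the group means removed. Both genes lie on chromosome 2, in embryos of mixed background, and the part of this shared location in r was not tested. *Pgpep1* and *Cnn3* came next (0.86 for both, and 0.756 and 0.435 with the group means removed). The 12 mutant libraries had *Notch1* at 4013 to 5879 and the 12 controls at 5570 to 9012.

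*Hey2* was most like *Bhlhe40* (r = 0.92, and 0.895 with group means removed), before *Acaca* and *Dmd* (0.88 for both, and 0.675 and 0.678 with group means removed). In library A12, which had the lowest *Hey2* of all 24 (530.2), *Bhlhe40* was also at its lowest (283.0). *Heyl* was most like *Arhgap31* (r = 0.92), *Col6a3*, a collagen chain of mesenchyme (0.92), and *Pdgfrb*, the receptor that marks pericytes (0.91). A1 was the lowest library for *Pdgfrb* as well, at 657.1, against 1271 to 2481 elsewhere. *Hes1* was most like *Plppr1* (r = 0.90), *2810025M15Rik* (0.90) and *Ptpru* (0.88), and *Hey1* most like *Patz1* (0.89), *Ypel1* (0.88) and *Igsf9* (0.87). *Hes5* had a lower best value, with *Tbc1d16* (0.81), *Runx1t1* (0.75) and *Eda* (0.74), and *Hes6* the lowest, with *Ddah2* (0.73), *Natd1* (0.70) and *Chst10* (0.70). With the group means removed, r lay between 0.652 and 0.928 for the genes named for these 5 members. *Nrarp* alone had a Notch receptor among its 3 most similar genes.

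**Figure D5:**
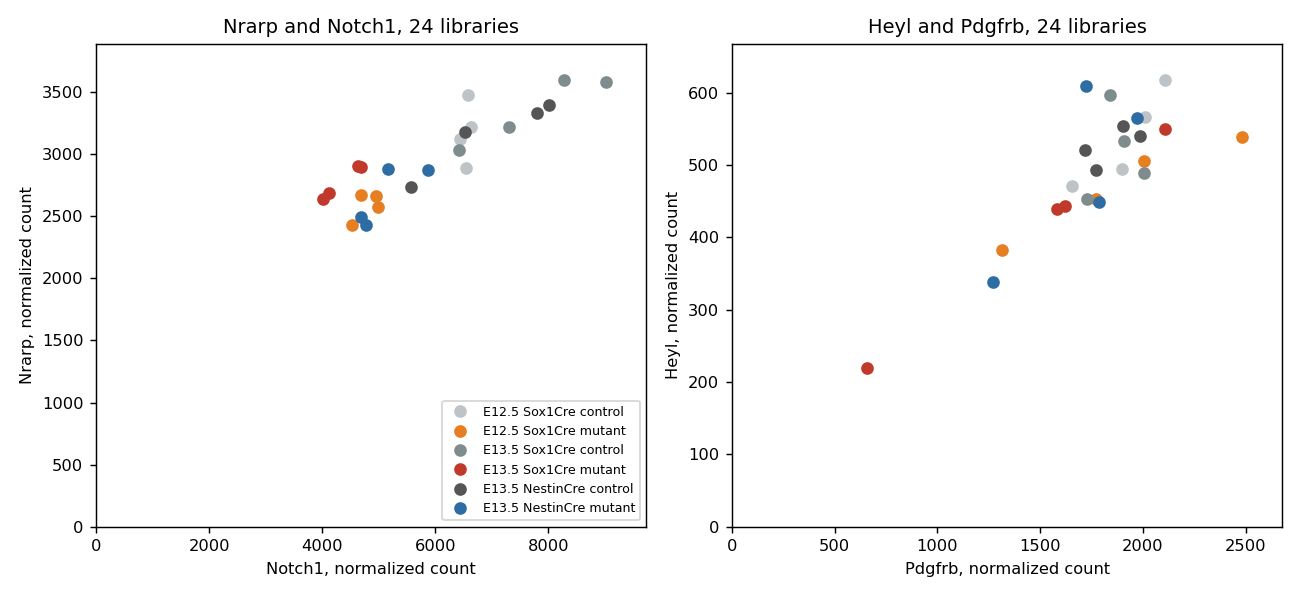
*Nrarp* against *Notch1* (left) and *Heyl* against *Pdgfrb* (right), normalized counts on linear axes from 0, 24 libraries coloured by group. *Nrarp* rises with *Notch1* from mutants to controls, and library A1 stands alone at a *Heyl* of 220 and a *Pdgfrb* of 657.1.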

How the data were processed

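RNA was extracted from dissected archicortices, libraries were made with the KAPA mRNA HyperPrep kit and sequenced on an Illumina HiSeq. Per the labels and the study's methods, the authors trimmed reads with Trimmomatic 0.36, aligned them with STAR 2.5.2a to GRCm38 (Ensembl release 89), counted them per gene with RSEM 1.2.31 and normalized the counts with DESeq2. The strand setting of the counting is not given in the sources used here. The deposited table holds these normalized counts, a read signal per gene divided by a size factor per library, for 51912 genes and 24 libraries. Values were whole multiples of the worth of 1 read within a tolerance of 0.01 in every library, so reads were recovered for depth and for edgeR and DESeq2. Symbols, exons and coordinates came from GENCODE M21, which named 51633 of the identifiers.

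Log2(value + 1) was tested with limma 3.58.1 (1 mean per group, trend, 24 libraries, Benjamini-Hochberg over the 16454 genes at 10 or more in 4 or more libraries), two-sided at 0.05. Fold changes are on this scale and slightly understate those of low genes. Exact permutation tests covered the libraries of 1 comparison. The 36 pairs of replicates differed by more than sampling noise (chi-square per degree of freedom 8.74 to 84.3). The scripts were tested on simulated data. Alternatives were pseudocounts of 0.5 and 5, other filters, quantile normalization, robust variance, library weights, an *Xist* covariate, the comparison's libraries alone, edgeR 4.0.16, DESeq2 1.42.0 and leaving out each library. Named genes were the 7 members, *Sox9*, *Xist*, from each other list up to 4 genes that passed in a mutant comparison or else the most abundant, and the 3 most similar genes per member. Not every gene under this rule is reported here. *Rbpj*, *Neurod2*, *Notch2*, *Notch3*, *Notch4*, *Jag1* and further ligands were named in addition, after their values were seen. The members and gene lists were chosen with earlier results of these data known.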

Additional observations from a re-analysis of the deposited data

Results flagged for a closer look

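*Hes5* had a high value in 1 library of the E13.5 Sox9fl/fl;Sox1Cre group: A4 was at 1412 normalized counts, while A1, A2 and A3 were at 878.0, 867.5 and 923.6. The gap between A4 and the next library was 0.897 of the range of the group, above Dixon's 95% critical value for 4 samples. Of 48 groups checked in this way (8 genes in 6 groups) this was the 1 that passed, and chance alone passes about 1 in 20. A4 was also the highest of all 24 libraries for *Hes6* (2056), for the sum of neuron markers (50660) and for that of Cajal-Retzius cell markers (17512). Their part in the *Hes5* value was not tested.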

How the results depend on the processing

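The alternatives were planned with earlier results of these data known. Counts of called members moved with a few settings. In the E13.5 Sox1Cre mutants the count was 1 in place of 0 with library weights and with DESeq2 on recovered reads, and at E12.5 it was 1 with library weights, with the *Xist* covariate and with DESeq2, and 0 to 1 when each library was left out. With age, the count in controls was 0 in place of 1 with the *Xist* covariate, and in mutants 0 in place of 3 with only the libraries of the comparison, and 1 to 3 when each library was left out. The NestinCre count and both differences stayed at 0 under every alternative run. Over all genes, the 152 calls in the E13.5 Sox1Cre mutants ranged from 44 (only the libraries of the comparison) to 962 (library weights) and from 90 to 510 (without A1) when each library was left out, the 119 at E12.5 from 76 to 577 with the same settings and from 50 (without A13) to 139 without each library, the 11 with NestinCre from 2 (*Xist* covariate) to 37 (DESeq2) and from 2 to 7 without each library, and the 7 for the difference between Cre lines from 5 to 369 (library weights), with 144 without A1. With age, the 1892 calls in controls ranged from 0 (*Xist* covariate) to 3244 (library weights) and from 794 (without A6) to 2629 without each library, and the 4263 in mutants from 2133 (only the libraries of the comparison) to 5550.

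Directions turned only for results that had not passed the threshold. With library weights *Hes5* in the E13.5 Sox1Cre mutants was -0.0033, *Hey2* with NestinCre 0.028 and the difference of *Nrarp* between ages -0.031 (log2). With the *Xist* covariate *Heyl* and *Nrarp* between ages in the controls were 0.14 and -0.032, and *Nrarp* between Cre lines 0.0026. Leaving out each library gave, in the E13.5 Sox1Cre mutants, -0.035 to 0.27 for *Hes5* and -0.036 to 0.21 for *Hey1*. It gave, with NestinCre, -0.013 to 0.064 for *Hes6*, -0.066 to 0.042 for *Hey2* and -0.25 to 0.027 for *Heyl*, and at E12.5 -0.18 to 0.068 for *Hes5*. For age it gave -0.12 to 0.018 for *Heyl* in controls, and -0.11 to 0.043 for *Hes6* and -0.41 to 0.027 for *Heyl* in mutants. For *Nrarp* it gave -0.073 to 0.042 between Cre lines and -0.021 to 0.071 between ages. The cause was not tested. No paired analysis was possible because the labels give groups no shared replicate numbers.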
